A study of Sus scrofa with 27 samples.

Results

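Coagulation and fibrinolysis were followed through 9 genes picked by name: F3, TFPI, THBD, PROCR, VWF, F2R, PLAT, PLAU and PLAUR. Each symbol matched 1 row of the count table, so that 9 of its 31908 genes are described, and all 9 had at least 10 counts in a library and passed the filter on low counts in every comparison. The 27 RNA-seq libraries came from whole-lung biopsies of Large White pigs, taken before (0h) and at 6h and 12h of ex vivo lung perfusion (EVLP), in which a lung is ventilated and perfused outside the body. All lungs came from donors without a heartbeat, were kept cold before perfusion and received acellular Steen solution with methylprednisolone, cefuroxime and heparin, so both groups carried an anticoagulant and a glucocorticoid. In the Gold Standard group (GS, 5 pigs numbered 9, 17, 44, 55 and 77) part of the perfusate was replaced at intervals, and in the Pediatric Dialysis group (PD, 4 pigs numbered 2, 3, 4 and 5) the circuit was dialysed through a pediatric membrane. The PD lungs had served an earlier study as well, and the GS lungs had not. The labels name 2 ways of RNA extraction without saying which served which library.

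Clotting is set off when tissue factor meets plasma factor VII, and the cascade that follows makes thrombin, which turns fibrinogen into fibrin and signals to cells. Endothelium restrains it with an inhibitor of tissue factor and with thrombomodulin and the endothelial protein C receptor, which together make thrombin activate protein C. Fibrin is dissolved by plasmin, which tissue-type and urokinase plasminogen activators release from plasminogen. In the lung, fibrin in alveoli and small vessels is a known feature of injury.

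The total count was 26335584 to 67522703 per GS library (median 53623755) and 14650700 to 21820935 per PD library (median 19344265), so no PD library reached the depth of a GS library and a batch of libraries cannot be told apart from the group. Within GS, the libraries of pigs 9 and 17 had 26335584 to 41802541 counts and those of pigs 44, 55 and 77 had 51708598 to 67522703. Lung markers were present: all 10 endothelial markers and all 7 alveolar epithelial markers were counted in every library. Red cell markers (4 of 5 in the table) summed to 0.799 to 10.7 counts per 1000000 (CPM) at 0h in GS and to 51.8 to 237 in PD. In PD this was nearly all HBB, at 50.3 to 235 CPM, against 0.355 to 8.79 in GS. The other red cell markers together stood at 0.444 to 2.91 CPM in GS and 1.53 to 4.32 in PD. SFTPC, which encodes a surfactant protein of alveolar type II cells, stood at 2698 to 4559 CPM at 0h in GS and at 19106 to 74816 in PD, while the other 6 alveolar markers together stood at 4506 to 7046 and 2877 to 9497. SFTPC also moved over time. In PD pig 4 it went from 74816 CPM at 0h to 11726 at 6h and the red cell sum from 237 to 16.5. PD pig 2 stood apart at 12h with 85010 CPM of SFTPC and a red cell sum of 363, of which HBB was 356. The part of these values in the results that follow was not tested.

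Levels are given as CPM after scaling to effective library size (TMM). Changes over time are log2 fold changes from the same pig at 0h, fitted within a group with edgeR. Called genes had an adjusted p under 0.05 and changed 2-fold or more in the edgeR fits, unless another fit is named. The words "rose" and "fell" are used only of called genes. The 6h and 12h comparisons of a group share its 0h libraries.

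PLAT, F3 and PLAUR were the members that edgeR called over time. At 6h in GS 2 of 9 were called (PLAT and PLAUR), against 11.1% of all genes tested and 5.5% that rose, and at 12h in GS 3 of 9 (PLAT, F3 and PLAUR), against 15.7% and 6.99% that rose. At 12h in PD 2 of 9 were called (PLAT and F3), against 5.98% and 3.22% that rose. At 6h in PD edgeR called 0 of 9, against 0.142% of all genes. The biological coefficient of variation was 0.489 in PD and 0.259 in GS. At 6h in PD 6 of 9 had an unadjusted p under 0.05, against 9.41% of all genes, and DESeq2 called 3 (PLAT, PLAU and PLAUR), against 2.3% of the genes it tested. All the called members rose. The median log2 fold change of the 9 was 0.62 and 0.53 at 6h and 12h in GS and 1.41 and 0.75 in PD, beside -0.05, -0.08, -0.02 and -0.05 over all genes tested. The 9 genes were chosen with earlier results of these data known. Their calls and medians beside all genes are therefore not independent evidence about the pathway. Between 6h and 12h edgeR called 0 members and 0% of all genes in either group. At an unadjusted p under 0.05 there were 0 members in GS, against 4.74% of all genes, and 2 in PD (TFPI and THBD), against 10%. DESeq2 called 0 members as well, but its share of all genes is not given here, so this is not read as a result about the members.

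**Figure D1:**
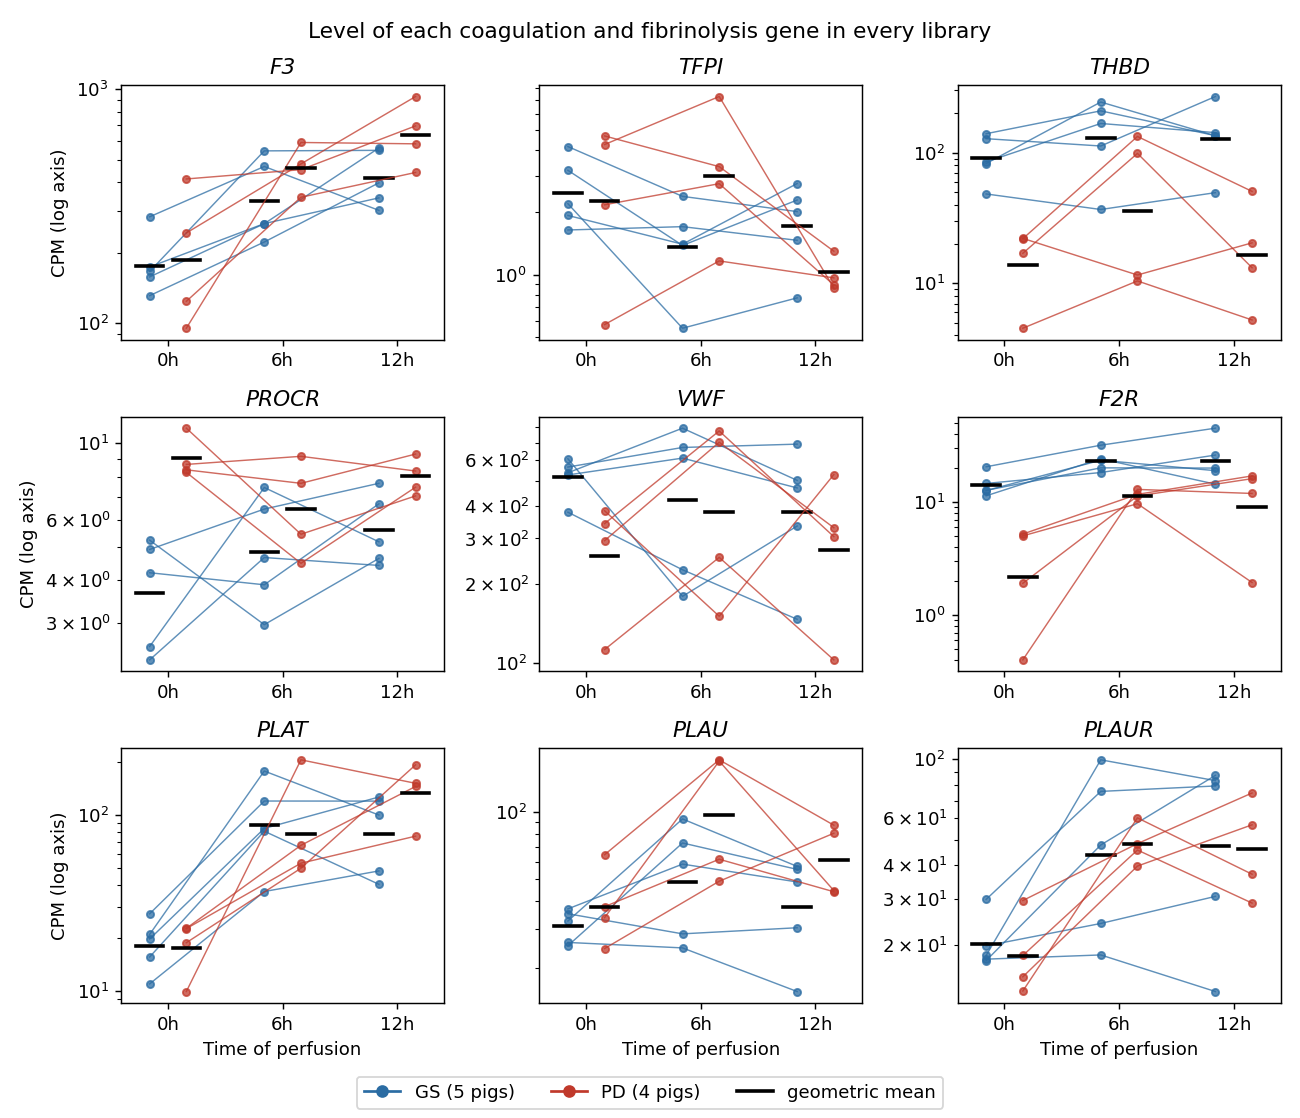
CPM of each of the 9 genes (log axis) at 0h, 6h and 12h in GS (blue, 5 pigs) and PD (red, 4 pigs). Points are libraries, thin lines join the libraries of a pig and black bars are geometric means, and PLAT lies higher at 6h and 12h than at 0h in all 9 pigs.

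**Figure D2:**
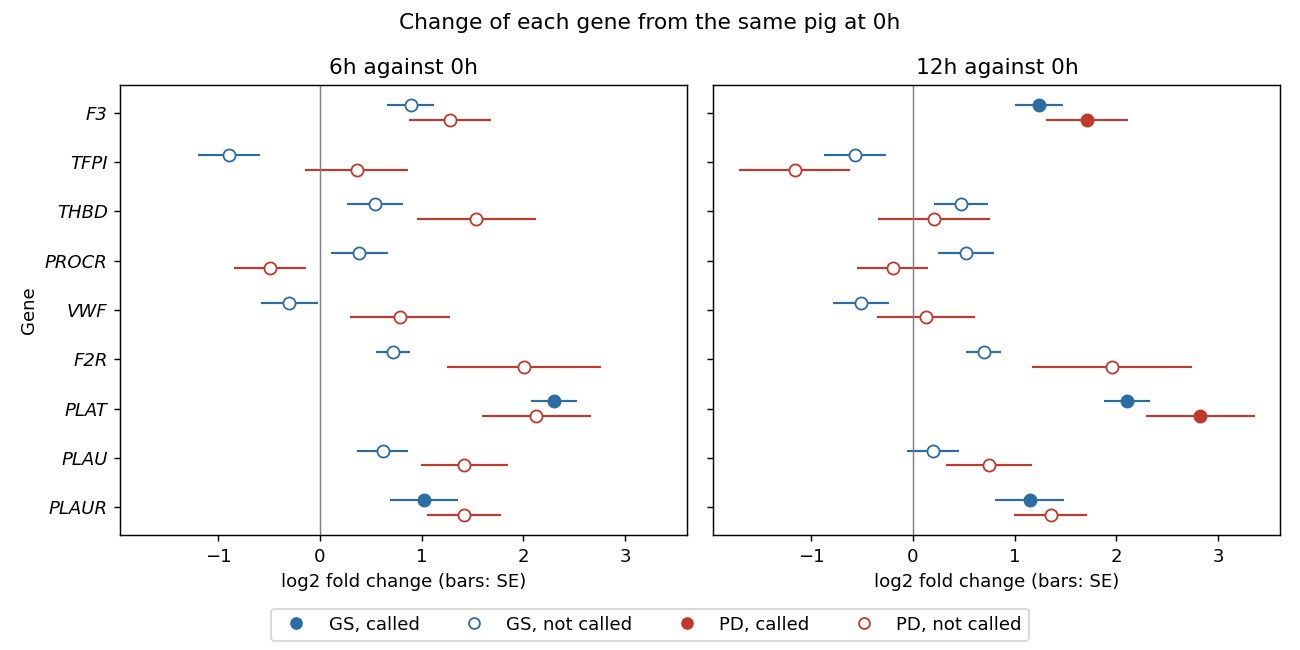
log2 fold change from 0h with its SE for each gene at 6h and 12h, in GS (blue) and PD (red). Filled points are called genes (PLAT and PLAUR at 6h in GS, PLAT, F3 and PLAUR at 12h in GS, PLAT and F3 at 12h in PD).

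The stretches before the starts of the 3 genes that rose are printed here to show what letters their promoters hold. Each is the 250 bases before the outermost start given by the count table or by RefSeq, read from the RefSeq genome of Sscrofa11.1, 5′ to 3′ on the gene's strand. F3 lies at chr4:122826742-122826991 on the plus strand, PLAUR at chr6:50505454-50505703 on the minus strand and PLAT at chr17:11224033-11224282 on the minus strand. Capitals mark matches on either strand to AP-1 (TGANTCA), NF-kB (GGANTTTCC), EGR (GCGNGGGCG), SP1 (GGGCGG), KLF (CACCC), HIF (ACGTG) or the TATA box (TATAAA).
F3: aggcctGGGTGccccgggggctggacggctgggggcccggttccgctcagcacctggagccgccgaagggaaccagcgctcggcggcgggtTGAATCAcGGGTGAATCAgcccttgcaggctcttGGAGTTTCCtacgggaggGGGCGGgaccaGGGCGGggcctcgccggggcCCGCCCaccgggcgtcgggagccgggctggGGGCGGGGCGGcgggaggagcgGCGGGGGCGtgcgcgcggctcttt
PLAUR: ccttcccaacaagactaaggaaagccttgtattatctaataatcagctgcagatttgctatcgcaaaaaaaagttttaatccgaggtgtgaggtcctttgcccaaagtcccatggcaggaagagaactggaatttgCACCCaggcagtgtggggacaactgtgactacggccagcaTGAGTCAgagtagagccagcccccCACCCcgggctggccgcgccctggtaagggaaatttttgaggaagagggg
PLAT: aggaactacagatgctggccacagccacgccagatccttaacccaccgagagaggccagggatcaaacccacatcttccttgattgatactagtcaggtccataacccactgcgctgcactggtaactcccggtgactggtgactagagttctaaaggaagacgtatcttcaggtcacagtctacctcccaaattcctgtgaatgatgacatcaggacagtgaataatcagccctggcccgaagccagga

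The F3 stretch held 2 AP-1 matches, beginning 159 and 148 bases before the start, 1 NF-kB match at 125 bases, 5 SP1 matches and 1 EGR match at 24 bases. It also held 2 KLF matches, of which the one at 151 bases overlaps the second AP-1 match, and the SP1 matches at 46 and 41 bases share 1 base. The PLAUR stretch held 1 AP-1 match at 74 bases and 2 KLF matches, and the PLAT stretch held none of the 7 motifs. The PLAT stretch ends at the start in the count table, 211 bases upstream of the RefSeq start, so it does not cover the bases just before the latter. For F3 this offset was 26 bases, and the PLAUR stretch ends at the RefSeq start. Of the other 6 genes, PROCR also held an AP-1 match. AP-1 letters were present in 5.68% of 20273 windows of the same length before annotated genes, NF-kB letters in 1.29%, EGR letters in 7.92%, SP1 letters in 41%, KLF letters in 52%, HIF letters in 17.9% and TATA letters in 11%. The F3 window had a GC content of 77.2%, against 51.6% for both PLAUR and PLAT and a median of 56% over all windows. These are matches of letters, and binding was not measured.

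Among the initiators, F3 (ENSSSCG00000022447, chr4:122826992-122837672, plus strand) encodes tissue factor, the receptor that starts clotting. In GS it stood at 285, 131, 166, 174 and 157 CPM at 0h in pigs 9, 17, 44, 55 and 77. At 6h the same pigs had 467, 222, 545, 266 and 266 CPM. At 12h they had 303, 398, 548, 343 and 560.4 CPM. Each pig was above its own 0h value at both times, and the 12h values lay above all 0h values, whereas the 6h values overlapped them. The log2 fold change was 0.89 ± 0.23 (SE) at 6h, with an adjusted p of 0.0133 but under 2-fold, and F3 rose by 1.24 ± 0.24 at 12h (adjusted p = 0.00174).

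In PD, F3 stood at 413, 243, 94.9 and 124 CPM at 0h in pigs 2, 3, 4 and 5. At 6h it was 453, 479, 592 and 345 CPM. At 12h it was 697, 930.4, 584 and 440.3 CPM. Pig 2 was highest at 0h, and all 4 values at 12h lay above all 4 at 0h. The log2 fold change was 1.28 ± 0.40 at 6h (adjusted p = 0.324) and F3 rose by 1.71 ± 0.40 at 12h (adjusted p = 0.0342). The 12h call was lost when pig 3, 4 or 5 was left out, with log2 fold changes of 1.62, 1.51 and 1.67, and when only the 0h and 12h libraries were fitted (1.79, adjusted p = 0.117). The 3′ end of F3 overlaps ABCD3 on the opposite strand. ABCD3 had 35398 counts over all libraries and F3 had 339709, and whether the counting used strand is not given in the sources used here.

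TFPI (ENSSSCG00000016032, chr15:92345075-92409905, minus strand) encodes tissue factor pathway inhibitor, which blocks tissue factor with factor VII. It was scarce, between 8 and 302 counts per library. In GS it stood at 1.65 to 4.17 CPM at 0h (median 2.21), 0.551 to 2.39 at 6h (median 1.40) and 0.773 to 2.76 at 12h (median 2.02). In PD it stood at 4.26, 4.69, 0.574 and 2.18 CPM at 0h, at 7.27, 3.33, 1.17 and 2.76 at 6h and at 0.863, 1.30, 0.965 and 0.892 at 12h in pigs 2, 3, 4 and 5. In GS 4 of 5 pigs were lower at 6h than at 0h, and in PD 3 of 4 pigs were higher, so that the groups leaned apart at 6h. The log2 fold change was -0.89 ± 0.31 at 6h in GS (adjusted p = 0.0449, under 2-fold) and -0.57 ± 0.31 at 12h (adjusted p = 0.157). In PD it was 0.36 ± 0.51 at 6h (adjusted p = 0.797) and -1.16 ± 0.55 at 12h (adjusted p = 0.216). TFPI was thus not called over time, but without GS pig 44 it was at 6h in GS (-1.13, adjusted p = 0.0469). Its level at 6h was higher in PD by a log2 difference of 1.28 ± 0.53 (adjusted p = 0.0902), which was called by DESeq2 (1.32, adjusted p = 0.0450) and without PD pig 4 (1.57, adjusted p = 0.0418).

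Among the endothelial anticoagulants, THBD (ENSSSCG00000042607, chr17:30221819-30230177, minus strand) encodes thrombomodulin, the thrombin receptor that redirects thrombin to protein C. At 0h it stood at 48.3, 128, 139, 84.9 and 82.5 CPM in GS pigs 9, 17, 44, 55 and 77 and at 22.1, 16.96, 4.53 and 21.9 CPM in PD pigs 2, 3, 4 and 5. At 6h it stood at 36.7, 112, 209, 167 and 244 CPM in GS and at 11.6, 98.6, 10.4 and 133 CPM in PD. At 12h it stood at 49.4, 268, 135, 142 and 134 CPM in GS and at 20.4, 13.2, 5.24 and 50.5 CPM in PD. The groups did not overlap at 0h. At 6h PD pigs 3 and 5 reached the GS range while PD pigs 2 and 4 did not, and at 12h only PD pig 5 did, just above GS pig 9.

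THBD was 5.73-fold lower in PD than in GS at 0h (log2 difference -2.52 ± 0.44, adjusted p = 0.000911) and 6.42-fold lower at 12h (-2.68 ± 0.64, adjusted p = 0.0136). At 6h the log2 difference was -1.28 ± 0.72 (adjusted p = 0.202). The 0h and 12h calls held when each of the 9 pigs was left out, with the 12h difference between -3.46 (without PD pig 5) and -2.35. In these bulk biopsies, fewer cells of a type and less RNA per cell cannot be told apart. Of the 10 endothelial markers, 3 were lower in PD at 0h (ERG with a log2 difference of -2.15, CDH5 with -1.69 and KDR with -1.21), CLDN5 was higher (1.67) and 6 were not called. Of all genes tested, 29.1% were called at 0h. The sum of the endothelial markers was 1820 to 2989 CPM at 0h in GS and 1629.8 to 2026 in PD, and at 12h 2041 to 3401 CPM in GS and 1589 to 2299.5 in PD. The part of the endothelial share in the THBD difference was not tested. Over time THBD was not called, with log2 fold changes of 0.54 ± 0.27 and 0.47 ± 0.27 at 6h and 12h in GS and of 1.54 ± 0.59 and 0.21 ± 0.55 in PD (adjusted p = 0.149, 0.177, 0.447 and 0.853). The table's gene model begins 6678 bases upstream of the RefSeq start, and it spans 1681 of the 3630 bases of the single RefSeq exon, so the counts miss part of the gene as RefSeq has it.

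PROCR (ENSSSCG00000026585, chr17:38532554-38537397, plus strand) encodes the endothelial protein C receptor, which presents protein C to thrombin bound by thrombomodulin. At 0h it stood at 4.20, 2.34, 2.56, 5.23 and 4.91 CPM in GS and at 8.69, 8.38, 11.07 and 8.23 CPM in PD. At 6h the ranges were 2.97 to 7.44 CPM in GS and 4.48 to 9.17 in PD, and at 12h 4.41 to 7.65 and 7.03 to 9.31. PD lay above GS without overlap at 0h and the groups overlapped afterwards, with 3 of 5 GS pigs higher at 6h than at 0h and 3 of 4 PD pigs lower. PROCR was 2.43-fold higher in PD at 0h (log2 difference 1.28 ± 0.30, adjusted p = 0.00507), the opposite direction from THBD, and this call held when each pig was left out. The log2 difference was 0.39 ± 0.36 at 6h (adjusted p = 0.449) and 0.50 ± 0.33 at 12h (adjusted p = 0.303). Over time the log2 fold changes were 0.39 ± 0.28 and 0.53 ± 0.27 in GS and -0.49 ± 0.35 and -0.20 ± 0.35 in PD, none of them called.

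VWF (ENSSSCG00000000712, chr5:64519186-65002098, plus strand) encodes von Willebrand factor, which endothelium and platelets store and which ties platelets to injured vessel walls. At 0h it stood at 378, 606, 536, 526 and 564 CPM in GS and at 383, 342, 112 and 294 CPM in PD. At 6h it stood at 228, 179.9, 795, 610.0 and 670.2 CPM in GS and at 151, 775, 254 and 702 CPM in PD. At 12h it stood at 147, 335, 501, 469 and 690.1 CPM in GS and at 527, 305, 103 and 329.8 CPM in PD. After 0h the pigs of each group split widely: GS pigs 9 and 17 were low at 6h and the other 3 high, and PD pigs 3 and 5 were high and pigs 2 and 4 low, the same PD pigs as for THBD. The summed endothelial markers at 6h were 2484 and 2249 CPM in PD pigs 3 and 5 and 1542 and 1980 CPM in pigs 2 and 4, and 1971 and 1549 CPM in GS pigs 9 and 17 against 2681 to 3179 CPM in the other GS pigs. Total counts were also lower in GS pigs 9 and 17 than in the other GS pigs. The part of the endothelial markers and of depth in the VWF and THBD values was not tested. VWF was not called in any comparison over time, with log2 fold changes from -0.51 to 0.79. Its level at 0h was lower in PD by a log2 difference of -0.84 ± 0.31 (adjusted p = 0.0474), under 2-fold. The table's model of VWF spans 482913 bases, against 139312 for RefSeq, so the level of VWF is uncertain by what the longer model adds.

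F2R (ENSSSCG00000035355, chr2:85641474-85656636, plus strand) encodes protease-activated receptor 1, through which thrombin signals to endothelium and other cells. At 0h it stood at 11.4, 20.5, 12.7, 14.6 and 12.6 CPM in GS and at 5.03, 5.22, 0.402 and 1.91 CPM in PD. At 6h it stood at 24.2, 31.9, 20.1, 18.3 and 23.5 CPM in GS and at 9.68, 11.7, 12.95 and 11.3 CPM in PD. At 12h it stood at 14.4, 45.1, 20.0, 26.1 and 19.0 CPM in GS and at 1.94, 17.05, 11.9 and 16.1 CPM in PD. All 9 pigs were above their 0h value at 6h and 8 of 9 at 12h, the exception being PD pig 2, and PD lay below GS without overlap at 0h and 6h. The PD values at 0h rest on 7 to 99 counts.

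F2R was 4.44-fold lower in PD at 0h (log2 difference -2.15 ± 0.54, adjusted p = 0.00744) and 2.08-fold lower at 6h (-1.06 ± 0.27, adjusted p = 0.0141). The 6h difference fell under 2-fold without GS pig 17 (-0.92) or PD pig 2 (-0.98). At 12h it was -1.07 ± 0.54 (adjusted p = 0.181). The log2 fold change from 0h was 0.72 ± 0.17 at 6h in GS (adjusted p = 0.00795) and 0.69 ± 0.17 at 12h (adjusted p = 0.00651), both under 2-fold. In PD it was 2.01 ± 0.76 at 6h (adjusted p = 0.436) and 1.96 ± 0.79 at 12h (adjusted p = 0.155). At 12h it was called without PD pig 2 (2.85, adjusted p = 0.0156) and was 1.38 without pig 4 and 1.51 without pig 5 (adjusted p = 0.325 and 0.598). Of the platelet and megakaryocyte markers (4 of 5 in the table), ITGA2B, TUBB1 and GP9 were lower in PD at all 3 times. PPBP was higher at 0h and not called later. The platelet markers summed to 108 to 185 CPM at 0h in GS and 77.4 to 121 in PD, and at 6h to 160.2 to 206 CPM in GS and 62.5 to 92.7 in PD. Of 7 smooth muscle and fibroblast markers, PDGFRB, PDGFRA, MYH11 and COL1A1 were lower in PD at 0h (-1.74, -1.57, -1.31 and -1.19), PDGFRB at 6h (-1.44) and PDGFRB and MYH11 at 12h (-1.77 and -1.42). These marker calls stand beside 29.1%, 21.1% and 19.3% of all genes called at 0h, 6h and 12h. The part of both lists in the F2R and VWF levels was not tested.

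**Figure D3:**
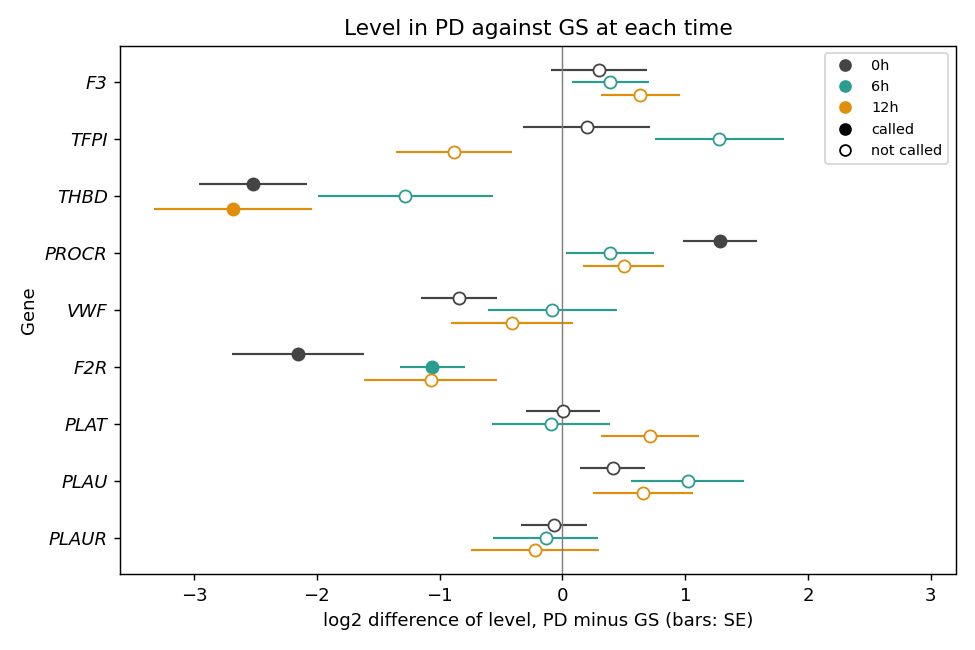
log2 difference of level, PD minus GS, with its SE for each gene at 0h (black), 6h (green) and 12h (orange). Filled points are called genes: THBD at 0h and 12h and F2R at 0h and 6h lay lower in PD, and PROCR at 0h lay higher.

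At 0h the levels of 3 of 9 members differed between PD and GS by the call (THBD, F2R and PROCR), against 29.1% of all genes tested. At 6h it was 1 (F2R), against 21.1%, and at 12h 1 (THBD), against 19.3%. The 0h biopsies were taken before any dialysis. F3, PLAT, PLAU and PLAUR were not called at any time, with log2 differences between -0.22 and 1.02.

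Among the plasminogen activators, PLAT (ENSSSCG00000007032, chr17:11195602-11224032, minus strand) encodes tissue-type plasminogen activator, the enzyme that starts fibrinolysis in vessels. At 0h it stood at 15.6, 10.97, 21.0, 19.7 and 27.5 CPM in GS and at 22.6, 22.7, 9.93 and 18.8 CPM in PD. At 6h it stood at 81.0, 36.7, 178, 83.9 and 120.2 CPM in GS and at 53.2, 67.3, 206 and 49.9 CPM in PD. At 12h it stood at 40.4, 48.1, 100.02, 127 and 120.03 CPM in GS and at 75.9, 145, 151 and 193 CPM in PD. No value at 6h or 12h overlapped the 0h values of its group, in GS or PD. PLAT was higher than at 0h in all 9 pigs at both times.

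PLAT rose 4.92-fold at 6h (log2 fold change 2.30 ± 0.23, adjusted p = 0.000109) and 4.31-fold at 12h (2.11 ± 0.22, adjusted p = 7.69e-05) in GS, and these calls held without any 1 of the 5 pigs. The single GS pigs ranged from 3.35-fold to 8.49-fold at 6h and from 2.59-fold to 6.41-fold at 12h. In PD the log2 fold change was 2.13 ± 0.53 at 6h (adjusted p = 0.179), higher in 4 of 4 pigs, and without the replicate block it was called (2.35, adjusted p = 0.0446). Without PD pig 4 the 6h value was 1.42 (adjusted p = 0.433). PLAT rose 7.09-fold at 12h in PD (2.83 ± 0.53, adjusted p = 0.0200). The single PD pigs ranged from 2.35-fold to 20.7-fold at 6h and from 3.35-fold to 15.2-fold at 12h, with pig 4 highest at both times. Without PD pig 3 or 5 the 12h call was lost, at log2 fold changes of 2.88 (adjusted p = 0.181) and 2.61 (adjusted p = 0.254). It was also lost when only the 0h and 12h libraries were fitted (2.93, adjusted p = 0.106).

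PLAU (ENSSSCG00000010312, chr14:76629299-76635172, plus strand) encodes urokinase, the plasminogen activator that acts at cell surfaces. At 0h it stood at 26.1, 35.1, 32.5, 36.9 and 25.2 CPM in GS and at 64.5, 37.7, 33.7 and 24.5 CPM in PD. At 6h it stood at 24.7, 28.5, 93.2, 58.5 and 72.8 CPM in GS and at 172, 61.5, 169 and 49.0 CPM in PD. At 12h the ranges were 15.7 to 57.1 CPM in GS and 44.004 to 87.4 in PD. GS pigs 9 and 17 lay at or below their 0h value at both times and the other 3 above it, while all 4 PD pigs lay above it at both times. Total counts split the GS pigs in the same way, lower in pigs 9 and 17, and their part was not tested. At 6h PD pigs 2 and 4, which had the lower THBD and VWF, had the higher PLAU. PD pig 2 was already the highest for PLAU at 0h. Over the 18 log2 ratios to 0h of all pigs, PLAU had a positive Pearson r with VWF (0.62) and with THBD (0.34). The log2 fold change of PLAU was 0.62 ± 0.25 at 6h (adjusted p = 0.0864) and 0.20 ± 0.25 at 12h (adjusted p = 0.555) in GS. It was 1.42 ± 0.43 (adjusted p = 0.275) and 0.75 ± 0.42 (adjusted p = 0.302) in PD. PLAU was therefore not called by edgeR, but DESeq2 called it at 6h in PD.

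PLAUR (ENSSSCG00000032434, chr6:50489777-50505418, minus strand) encodes the urokinase receptor, which holds urokinase on leukocytes and other cells. At 0h it stood at 17.8, 19.9, 29.8, 17.5 and 18.3 CPM in GS and at 29.5, 18.3, 13.5 and 15.2 CPM in PD. At 6h it stood at 18.4, 24.2, 75.8, 47.7 and 99.6 CPM in GS and at 48.3, 45.7, 60.3 and 39.7 CPM in PD. At 12h it stood at 13.4, 30.6, 79.5, 87.1 and 83.2 CPM in GS and at 74.8, 28.8, 37.0 and 56.8 CPM in PD. GS pigs 44, 55 and 77 were high at 6h and 12h and GS pigs 9 and 17 stayed in or close to the 0h range, whereas in PD the 6h values lay above all 0h values. The libraries of GS pigs 9 and 17 also had lower total counts than those of the other GS pigs, and the part of depth was not tested. PLAUR rose by a log2 fold change of 1.02 ± 0.34 at 6h (adjusted p = 0.0373) and 1.15 ± 0.34 at 12h (adjusted p = 0.0175) in GS. Both calls were lost without pig 44, 55 or 77, with log2 fold changes of 0.94, 0.93 and 0.70 at 6h and 1.09, 0.85 and 0.95 at 12h. In PD it was 1.41 ± 0.36 at 6h (adjusted p = 0.187) and 1.35 ± 0.36 at 12h (adjusted p = 0.0503), higher than 0h in 4 of 4 pigs each time. Without the replicate block PLAUR was not called at 6h in GS (1.33, adjusted p = 0.0896) and was called at 12h in PD (1.37, adjusted p = 0.0311). Of 4 neutrophil markers in the table edgeR called 0 over time in either group (2 had an unadjusted p under 0.05 at 6h in PD, against 9.41% of all genes, and 0 in each other comparison with 0h), and of 7 monocyte and macrophage markers only CD14 was called, rising by 1.28 at 6h and 1.596 at 12h in GS. Of all genes, 11.1% and 15.7% were called at 6h and 12h in GS and 0.142% and 5.98% in PD. The neutrophil markers summed to 122 to 369 CPM at 0h in GS, 180.7 to 226 at 6h and 140.2 to 400.4 at 12h, and in PD to 601 to 1225, 223 to 1103 and 243 to 1512. The list was split between the groups: S100A8 (log2 differences of 3.27, 2.39 and 2.76 at 0h, 6h and 12h) was higher in PD, as was S100A12 at 0h and 6h (2.29 and 1.57), whereas CSF3R was lower (-1.36, -1.29 and -2.12) and MMP8 was not called. Their part in the values of PLAUR, PLAU and F3 was not tested.

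The question of the series is whether dialysis alters the response, and for the 9 genes it was put to the per-pig changes from 0h (rlog values, 4 PD against 5 GS pigs). The exact two-sided Wilcoxon test, whose smallest possible p is 0.0159, gave 0 of 9 members with an unadjusted p under 0.05 at 6h and 0 at 12h, against 5.94% and 3.95% of all genes tested. The paper reports genes whose fold changes differed between the groups in its own Wilcoxon comparison. Here no gene of the whole table passed after adjustment. With 1063 and 706 of 17884 genes under 0.05 and a smallest p of 0.0159, none could pass at 6h or 12h. The lack of genes passing is therefore not read as a result about dialysis. The edgeR interaction of group and time also called 0 of 9 at either time, with adjusted p of at least 0.783, and only TFPI at 6h had an unadjusted p under 0.05 (0.0428). The share of all genes in the interaction fit is not given here, so these counts are not read as a result about the members. TFPI had the lowest Wilcoxon p at 6h: its change was higher in PD by 0.75 on the rlog scale (exact p = 0.0635, adjusted p = 0.598). On log2 CPM the exact permutation test gave p = 0.0159 for F2R at 6h (difference of change 1.67), 0.0476 for TFPI at 6h (1.28) and 0.0397 for PROCR at 12h (-0.78), all unadjusted. The share of all genes under 0.05 in the permutation test is not given here. The F2R ratios of PD divide by the 0h libraries with 7 to 99 counts. For PLAT the difference of change (PD minus GS) in the interaction fit was -0.19 ± 0.55 (SE) at 6h and 0.68 ± 0.54 at 12h, and for F3 0.36 ± 0.45 and 0.44 ± 0.45.

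**Figure D4:**
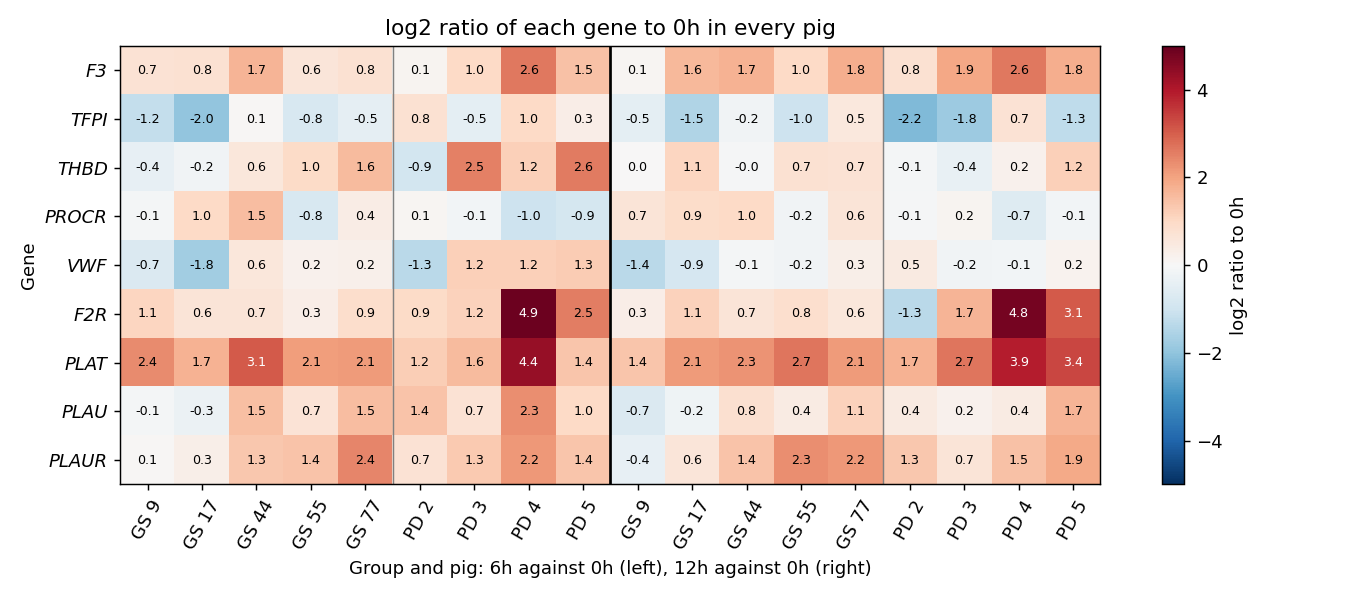
log2 ratio of CPM to the 0h library of the same pig for the 9 genes (rows) in each pig (columns), at 6h on the left and 12h on the right. Red is higher than 0h and blue lower, and PLAT is positive in all 18 columns, from 1.23 to 4.37, while VWF has both signs in each group at 6h.

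Some pairs of the genes also varied together across pigs. Over the 18 values of log2 ratio to 0h (9 pigs at 2 times, the 2 values of a pig sharing its 0h library), F3 and PLAT had a Pearson r of 0.80, PLAU and PLAUR of 0.74, F2R and PLAT of 0.73, F3 and F2R of 0.73 and THBD and VWF of 0.72. PD pig 4 had the largest ratios of F3, PLAT and F2R at 6h, and r without this pig is not given here. The remaining pairs without PROCR ran from 0.02 (THBD and PLAT) to 0.68 (VWF and PLAUR). PROCR had a negative r with each of the other 8, from -0.53 with F2R to -0.17 with F3. Depth and tissue makeup also varied between libraries, so these r describe the 18 values only. By the same measure over all genes with a symbol, the ratios most like PLAUR were those of HSP70.2 (r = 0.93), HSPH1 (0.90) and DNAJB1 (0.89), which encode heat shock chaperones. Those most like PLAT were GRAMD2B (0.93), CYTH1 and NMT2 (both 0.92), and most like F3 SF3B4, NAF1 and MORN4 (all 0.87). For VWF they were ADD1 (0.91), SOD3 (0.90) and MIDN (0.88), and for THBD NUP210 (0.87), ATP13A2 (0.86) and BCL9L (0.85). MED13, LRRC66 and KMT2E reached 0.97 to 0.98 with F2R, whose low PD pig 4 value at 0h sets the 2 largest ratios. For TFPI they were PEX7, ATRNL1 and STAU2 (all 0.91), for PLAU WIF1 (0.89), ANO4 (0.86) and GPR183 (0.85), and for PROCR PDGFRL (0.85), DERL1 (0.83) and TTYH2 (0.80).

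To compare levels between genes, CPM was divided by the exon length of the RefSeq model in kilobases, a scale that is only approximate since the counts use other models. F3 was the highest in every group and time, at 100.2 ± 32.6 (SD, n = 5) CPM per kilobase at 0h in GS and 364 ± 114 (n = 4) at 12h in PD. VWF came second at 0h, with 60.1 ± 9.92 in GS and 32.6 ± 13.7 in PD. TFPI was lowest throughout, at 0.355 ± 0.140 in GS and 0.395 ± 0.258 in PD at 0h. PLAT stood at 7.81 ± 2.54 at 0h in GS, below PLAUR and PLAU (14.4 and 13.1), and at 41.2 ± 21.7 at 6h, where its range of 15.1 to 73.3 overlapped those of VWF and PLAUR. In PD, PLAT was second at 12h (58.3 ± 20.0), within the spread of VWF (36.4 ± 20.0) and PLAUR (34.3 ± 14.3). THBD and F2R were left out of this order, since the table's models span only 46.3% and 34.3% of their RefSeq exon bases, against 97.3% or more for the other 7.

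Other genes of the pathway were read from 4 lists. Of 15 genes of fibrinolysis and its inhibitors 12 were tested. THBS1, the adhesive glycoprotein thrombospondin 1, rose in GS by log2 fold changes of 1.31 ± 0.26 at 6h and 1.18 ± 0.26 at 12h and was not called in PD, at 2.52 ± 0.91 and 2.60 ± 0.97 (adjusted p = 0.412 and 0.131). At 6h in PD edgeR called 0 of the 12, against 0.142% of all genes, and 2 had an unadjusted p under 0.05, against 9.41%. Plasminogen itself (PLG) was tested in neither group, with at most 15 counts in a library.

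Of 17 clotting factor and fibrin genes 12 were tested. F11, which encodes factor XI, fell by 1.88 at 6h and 1.59 at 12h in GS on the log2 scale and by 2.09 at 12h in PD (adjusted p = 0.00252, 0.00366 and 0.0411). At 12h in GS, F5 (factor V) fell by 1.02 and F13A1 (the A subunit of the fibrin-linking factor XIII) rose by 1.32 ± 0.48. The fibrinogen chain genes were near nothing, FGA at 0 counts in every library and FGG and FGB at no more than 10 and 43, and F9 was at 0. Of 13 anticoagulant genes, 9 were tested in GS and 7 in PD, and edgeR called 0 of them over time, against the 11.1% and 15.7% of all genes at 6h and 12h in GS and 0.142% and 5.98% in PD. At an unadjusted p under 0.05 there were 3 at each time in GS (against 41.2% and 48.5% of all genes), where ENTPD1 and HS3ST1 had log2 fold changes of -0.58 and -0.88 at 6h and -0.79 and -0.73 at 12h and TFPI2 of 0.49 and 0.46, and 0 in PD (against 9.41% and 24.5%). The medians were -0.06 and -0.32 at 6h and 12h in GS and -0.05 and -0.28 in PD. Among 12 thrombin receptor and platelet adhesion genes, of which 9 were tested, F2RL2 (1.04 ± 0.15 and 1.23 ± 0.15) and F2RL1 (1.38 ± 0.32 and 1.48 ± 0.32), which encode protease-activated receptors, rose at 6h and 12h in GS. In PD F2RL2 stood at 2.18 and 2.43 (adjusted p = 0.564 and 0.237) and F2RL1 at 1.50 and 0.96 (adjusted p = 0.101 and 0.0890), neither of them called. P2RY12, the ADP receptor of platelets, which other cells also make, fell by 1.86 and 2.28 in GS and by 2.48 at 12h in PD (adjusted p = 0.00359, 0.000800 and 0.0342).

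Between the groups, the anticoagulant PROS1 (protein S, the cofactor of activated protein C) was higher in PD at 0h, 6h and 12h, by log2 differences of 1.50 ± 0.36, 1.90 ± 0.33 and 1.12 ± 0.33. ANXA5, which covers the phospholipid that clotting needs, was higher at 0h (1.34 ± 0.32) and 6h (1.01 ± 0.29). In fibrinolysis, PLGRKT, a plasminogen receptor, was higher in PD at all 3 times (2.76 ± 0.36, 2.67 ± 0.43 and 2.28 ± 0.38), and S100A10 and ANXA2, which together bind plasminogen at the cell surface, were higher at 0h (1.45 ± 0.18 and 1.08 ± 0.21) and 12h (1.30 ± 0.38 and 1.22 ± 0.27). CPB2 was also higher at 0h (2.07 ± 0.54) and 12h (2.02 ± 0.50), on at most 38 counts, and SERPINE2 at 12h (1.45 ± 0.34). MRC2 was lower at 0h (-1.23 ± 0.31) and 6h (-1.42 ± 0.43). Of the clotting list, FGL2 was higher at 0h (1.35 ± 0.20), TGM2 lower at 0h (-1.92 ± 0.29) and 6h (-1.14 ± 0.38), F13A1 lower at 0h (-1.23 ± 0.44) and F5 lower at 12h (-1.48 ± 0.44). F2RL2 was lower at 0h (-2.46 ± 0.65) and 6h (-1.18 ± 0.32), like F2R, and GP1BA at 12h (-2.86 ± 0.70). The lists' medians of PD minus GS at 0h were 0.78 for fibrinolysis, 0.44 for anticoagulants, 0.15 for clotting factors and -0.82 for thrombin receptors and platelet adhesion, beside 0.00 over all genes tested. With 29.1% of all genes called at 0h, these counts are not read as particular to the pathway.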

How the data were processed

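Whole-lung RNA-seq of 9 pigs at 3 times was used. The authors deposited raw counts per Ensembl gene of Sscrofa11.1. The submitters' processing notes name bcl2fastq 2.2.18.12, cutadapt 1.15, TopHat2 2.0.14, featureCounts (Subread 1.6.0) and DESeq2 1.18.1. Counting strand and the handling of multi-mapping reads are not given in the sources used here. All 27 columns of values were used, and 0 were left out.

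Groups, pigs and times came from the labels. The members and gene lists were chosen with earlier results of these data known. Within a group, edgeR 4.0.16 under R 4.3.3 (with limma 3.58.1) ran robust quasi-likelihood F tests after filterByExpr and TMM, with its 3 times and the pig as a replicate block. PD and GS levels were fitted per time. Calls needed a Benjamini-Hochberg adjusted p under 0.05 over all genes tested and a 2-fold change. Changes were compared by an exact Wilcoxon test on rlog values (DESeq2 1.42.0). For per-pig log2 CPM, 0.5 was added to each count. Each pig gave a biopsy at every time, so the pig pairs the libraries: residuals of the same pig had a mean correlation of 0.513 in GS and 0.112 in PD, against -0.116 and -0.0337 between pigs. The pigs are separate animals, and no library repeated another (chi-square over degrees of freedom of at least 26.7 for every pair).

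All 9 members were named in each comparison, and of each pathway list the called genes, up to 4 in each direction by smallest adjusted p. The exception was fibrinolysis at 12h, where all 5 genes called higher in PD were named. The results of 1 listed gene are not reported here. The 3 genes most like each member were taken by Pearson r of log2 ratios. Exon lengths, loci for comparison and promoter sequence came from RefSeq on Sscrofa11.1. Alternatives left out the replicate block, fitted only the 2 times compared, and used all libraries in 1 fit, DESeq2, its size factors, no filter, no fold threshold or other forms of the change test, and each pig was left out in turn. The fits were tested on simulated data. Total counts and the biological coefficient of variation between pigs (0.259 in GS, 0.489 in PD) both differ between the groups and bear on precision.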

Additional observations from a re-analysis of the deposited data

Results flagged for a closer look

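In 7 of 90 groups of 4 or 5 values (log2 CPM at a time, or log2 ratio to 0h, for the 9 genes) the highest or lowest pig stood apart from the rest by Dixon's criterion. Chance marks about 1 in 20 groups. For log2 ratios at 6h, F3 in GS pig 44 stood high at 1.71, PLAT in PD pig 4 stood high at 4.37 and VWF in PD pig 2 stood low at -1.34. At 12h PLAU in PD pig 5 stood high at 1.71. For log2 CPM, THBD in PD pig 4 at 0h stood low at 2.19, on 79 counts, F2R in PD pig 2 at 12h stood low at 0.997, on 18 counts, and PLAUR in GS pig 44 at 0h stood high at 4.90. Of the 7, 5 were PD libraries, and 2 of these belonged to pig 2 and 2 to pig 4. Causes were not tested.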

How the results depend on the processing

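Counts of called members were small, so single genes move them. At 6h in GS the count of 2 became 5 with no fold change threshold (F3, TFPI and F2R added) and 1 without the replicate block, with no filter and with all 27 libraries in 1 fit (PLAUR lost). The share of all genes called went from 11.1% to 28.5%, 6.04%, 7.18% and 6.82% in these fits. At 6h in PD the 0 became 1 without the replicate block, 3 with DESeq2 and 3 with all libraries in 1 fit, and the share of all genes from 0.142% to 0.643%, 2.3% and 2.68%. At 12h in PD the 2 became 4 with DESeq2, 0 with only the 2 times compared and 4 with all libraries in 1 fit, and the share of all genes from 5.98% to 13.3%, 0.0268% and 18.5%. The block, which pairs the libraries of a pig, changed no other count by over 1.5 times. For levels at 6h the 1 became 2 with DESeq2 (TFPI added), and the share of all genes went from 21.1% to 20.7%. For the change at 6h the 0 became 1 with Wilcoxon on log2 CPM and 2 with the exact permutation test, and at 12h 1 with the permutation test. The share of all genes under these tests is not given here, so the counts are not read as a result about the members.

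Leaving out each pig gave 1 to 2 members at 6h in GS and 0 to 4 at 12h in PD (4 without pig 2, 1 without pig 4, 0 without pig 3 or 5, with 24.4%, 2.55%, 0% and 0% of all genes called). It gave 0 to 2 for levels at 6h (0 without GS pig 17 or PD pig 2, 2 without PD pig 4), 0 to 1 for the change at 6h (1 without PD pig 2, 3 or 4) and 0 to 2 for the change at 12h (1 without GS pig 55, 2 without PD pig 2). For these counts and those at 6h in GS the share of all genes is not given here, so they are not read as a result about the members. The direction turned when single pigs were left out only in results that were not called. Among such results, log2 values ran from -0.52 to 0.031 for VWF at 6h in GS, -0.0017 to 0.50 for PLAU at 12h in GS, and, at 12h in PD, -0.069 to 0.24 for VWF, -0.32 to 0.0036 for PROCR and -0.064 to 0.36 for THBD. For PD minus GS levels they ran from -0.13 to 0.54 for TFPI at 0h and -0.42 to 0.24 for VWF at 6h, and for the change at 6h from -0.031 to 0.45 for F3 and -0.57 to 0.059 for PLAT. The causes were not tested. TFPI and, at 0h in PD, F2R rest on low counts.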
